A study of Mus musculus with 15 samples.

Results

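The genes described here are 10 genes of fatty acid synthesis and desaturation, Srebf1, Acly, Me1, Acaca, Fasn, Elovl6, Scd1, Scd2, Fads1 and Fads2, followed across bulk RNA sequencing of the mouse ileum. They were taken by gene symbol from a table of 25329 genes. All 10 were in the table, and all 10 passed the filter on low values (at least 1 FPKM in at least 5 libraries), which left 11332 genes to be tested. FPKM scales the reads of a gene to its length and to the reads of the library, so that levels can be set side by side between genes.

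The series holds 15 libraries, 5 from each of 3 genotypes. WT mice carried floxed alleles of Tak1 (Tak1f/f), HO mice (TAK1 IEC-KO) had lost the gene from the intestinal epithelium, and DHO mice combined that deletion with Ripk1 D138N/D138N, a pair of alleles whose RIPK1 protein has no kinase activity. TAK1, the kinase that Map3k7 encodes, keeps cells alive under inflammatory signals, and the design asked what RIPK1 kinase does in the ileitis of these mice. Mice of all groups were given 80 mg/kg tamoxifen by intraperitoneal injection on 3 days, and ileum was taken 3 days after induction. The labels name neither the Cre line, nor the age, sex, litter or batch of a mouse. P-values therefore measure the spread between these libraries only, 5 per group. In the main fit the spread of a gene is pooled over all 3 groups, so a comparison of 2 groups also uses the third.

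Fatty acid synthesis starts in the cytosol, where ATP citrate lyase (Acly) makes acetyl-CoA from citrate, acetyl-CoA carboxylase 1 (Acaca) makes malonyl-CoA from it, and fatty acid synthase (Fasn) joins these units into palmitate with NADPH that malic enzyme 1 (Me1) helps to supply. Elovl6 lengthens palmitate to stearate, the stearoyl-CoA desaturases Scd1 and Scd2 put in the first double bond, and the front-end desaturases Fads1 (delta-5) and Fads2 (delta-6) make long polyunsaturated fatty acids from dietary ones. The transcription factor SREBP-1, the product of Srebf1, drives most of these genes when it is released from the membrane, and in the gut epithelium the products go into membranes and into exported lipid.

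Promoter sequences from RefSeq (build GRCm38.p6) were matched by symbol for 7 of the 10 genes, in 10 windows of 300 bases that run from 250 bases before to 50 bases after a transcript start. Shown are the 250 bases before the start of Fasn and Fads2, which changed most among the genes with a window, of their regulator Srebf1 at one of its 3 starts, and of Me1, which did not pass the test in any comparison. Capitals mark the letters CCAAT (the motif of NF-Y, a partner of SREBP) and GGGCGG (a motif of Sp1), on either strand, so that they also appear as ATTGG and CCGCCC.
Fasn, minus strand, chr11:120824548-120824797: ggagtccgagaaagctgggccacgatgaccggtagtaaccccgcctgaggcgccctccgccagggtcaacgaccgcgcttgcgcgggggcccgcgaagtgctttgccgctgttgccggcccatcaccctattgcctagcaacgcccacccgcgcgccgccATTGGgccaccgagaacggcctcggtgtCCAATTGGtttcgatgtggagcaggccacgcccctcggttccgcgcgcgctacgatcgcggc
Fads2, minus strand, chr19:10101504-10101753: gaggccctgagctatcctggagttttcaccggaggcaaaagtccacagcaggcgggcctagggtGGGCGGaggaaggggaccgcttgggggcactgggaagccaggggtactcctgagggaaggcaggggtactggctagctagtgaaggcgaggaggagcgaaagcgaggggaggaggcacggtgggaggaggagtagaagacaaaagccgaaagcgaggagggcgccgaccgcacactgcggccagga
Srebf1, minus strand, chr11:60210472-60210721: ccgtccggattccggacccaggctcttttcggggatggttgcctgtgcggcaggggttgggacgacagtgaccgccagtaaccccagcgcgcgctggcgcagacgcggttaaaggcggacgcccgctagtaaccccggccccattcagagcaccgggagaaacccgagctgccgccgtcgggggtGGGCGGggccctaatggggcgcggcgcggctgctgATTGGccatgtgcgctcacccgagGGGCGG
Me1, minus strand, chr9:86695915-86696164: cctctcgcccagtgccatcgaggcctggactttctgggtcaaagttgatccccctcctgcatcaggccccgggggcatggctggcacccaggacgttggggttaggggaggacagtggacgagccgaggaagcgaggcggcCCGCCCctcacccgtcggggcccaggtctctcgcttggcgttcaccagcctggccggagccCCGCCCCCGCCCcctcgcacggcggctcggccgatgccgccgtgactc

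The Fasn window held CCAAT 3 times, at 90, 62 and 59 bases before the start, and the last of these overlaps the one before it on the other strand. Over the 300 bases, CCAAT was found in 4 of the 7 genes (Fasn, Acly, Srebf1 and Me1) and GGGCGG in 4 (Acly, Srebf1, Me1 and Fads2). A gene can have more than 1 window, and counted by window each was found in 5 of the 10. In Me1 CCAAT was only in window 2, which is not shown, at 208 bases before another start. The only Acaca window, chr11:84195188-84195487, lies inside the span of the gene and not at its first base. Of the 32851 promoter windows searched as background, 37.4% held CCAAT and 35.7% GGGCGG. The sterol regulatory element TCACNCCAC, the E-box CACGTG and TATAAA, each searched on both strands, were found in none of the 7. They were in 1.2%, 7.2% and 13.6% of the background windows. A match is a string of letters, not a bound site, and its absence says only that these letters are not in this window.

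Some libraries stood apart before any comparison. In HO 1, DHO 3 and DHO 4 genes of the upper small intestine were read, among them Gata4, which marks duodenum and jejunum, at 27.3, 19.0 and 18.04 FPKM, while no other library exceeded 0.529 FPKM. HO 1 also lacked markers of the distal gut, whose 5 genes summed to 15.8 FPKM against 2267 to 13340 in the other 14 libraries, so the label ileum was not borne out by its markers in that library. HO 2, HO 4 and DHO 1 carried more B cell transcripts than the rest. Depth was even, at 38724783 to 40590053 reads per library. Map3k7 itself ranged from 9.39 to 11.2 FPKM (WT), 6.88 to 9.42 (HO) and 8.31 to 10.1 (DHO), but a value summed over the whole gene in whole tissue is no check of a deletion limited to part of the gene in 1 cell type. The reads carry no molecular identifiers, so counts describe counting error only.

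In WT ileum Scd2 was by far the most abundant of the 10 transcripts, at 187 ± 22.0 FPKM (SD, n = 5). Fads2 followed at 47.5 ± 5.98 FPKM and Elovl6 at 22.5 ± 1.98, and their ranges overlapped neither each other nor the genes below. Acly (14.9 ± 3.33) and Srebf1 (12.9 ± 1.24) came next and overlapped each other. Scd1 (10.1 ± 1.63), Fasn (8.54 ± 1.40), Fads1 (5.92 ± 1.81), Me1 (5.40 ± 0.548) and Acaca (3.73 ± 0.635) lay below them, each overlapping its neighbour in that order. In HO the order changed: mean Scd2 was 20.9 FPKM but its median only 8.44, and Elovl6 (median 12.4 FPKM) had the highest median of the 10.

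**Figure D1:**
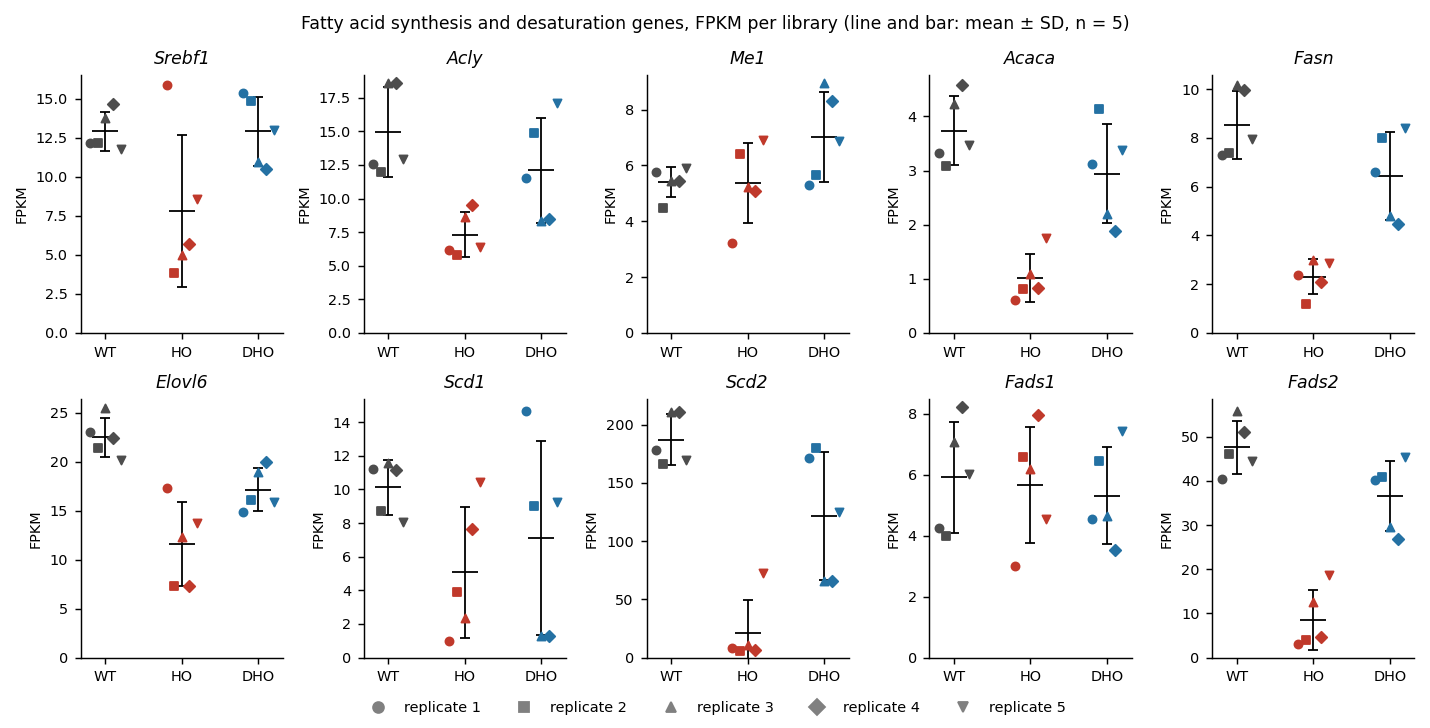
FPKM of each of the 10 genes by group, with 1 symbol per library and a bar for the mean ± SD of 5 libraries; each panel has its own linear axis from 0, and the bar of Scd2 in HO runs below the axis. Scd2, Fads2, Fasn and Acaca are lower in every HO library than in any WT library. HO 5 is the high HO library of Scd2 (72.5 FPKM, above DHO 3 and DHO 4), and Me1 and Fads1 overlap in all groups.

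The first comparison, HO against WT, asks what loss of epithelial TAK1 did to these transcripts. Of the 10 genes, 7 fell (Scd2, Fads2, Fasn, Acaca, Elovl6, Acly and Srebf1) and 0 rose, with a median change of -1.05 on the log2(FPKM + 1) scale. Scd1, Me1 and Fads1 did not pass the test. Of all genes tested, 42.9% were called lower and 12.4% higher, and the median change over all genes was -0.25, so falls were common in HO well beyond these genes. Relative to that median, the median change of the 10 was -0.80. Calls are at an adjusted p under 0.05 (limma, Benjamini-Hochberg over all 11332 genes). In 6 of the 10 genes every HO library lay below every WT library, against 29.8% of all genes tested. Median-of-ratios scaling, which took the median of all genes to 0.01, gave 2804 genes higher and 2640 lower in place of 1406 and 4867, and called 6 of the 10 genes lower, without Srebf1. In whole tissue, fewer cells of a type and less RNA per cell cannot be told apart.

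The second comparison, DHO against HO, asks what kinase-dead RIPK1 did where TAK1 was deleted. The same 7 genes rose and 0 fell, with a median change of 0.71, while 42.8% of all genes tested were called higher and 13.4% lower. The median change of all genes was 0.25. In 3 of the 10 (Fasn, Acaca and Fads2) every DHO library lay above every HO library, against 27.9% of all genes. Median-of-ratios scaling gave 2797 genes higher and 2934 lower in place of 4846 and 1513, and called 4 of the 10 higher (Acaca, Fads2, Fasn and Scd2); the same 4 were called without HO 2, HO 4 and DHO 1. This comparison shares the HO libraries with the first, so a low HO value enters both. In DHO against WT the median change of the 10 was -0.34, against 0.002 for all genes tested. Without HO 1, DHO 3 and DHO 4 these medians were -0.04 and 0.05. With all libraries, 0 of the 10 were called in either direction by limma and 0 had an unadjusted p under 0.05. By limma-voom on recovered reads 0 were called. With the DHO and WT libraries fitted alone 0 were called too. In that fit 5 had an unadjusted p under 0.05, Scd2, Fasn, Elovl6 and Fads2 lower and Me1 higher. The share of all genes under that unadjusted p was not counted, so these 5 have no background beside them. By adjusted p, 91 genes were called higher and 95 lower in that fit. In the fit of all 3 groups, 0.0794% of all genes tested were called higher and 0.159% lower.

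**Figure D2:**
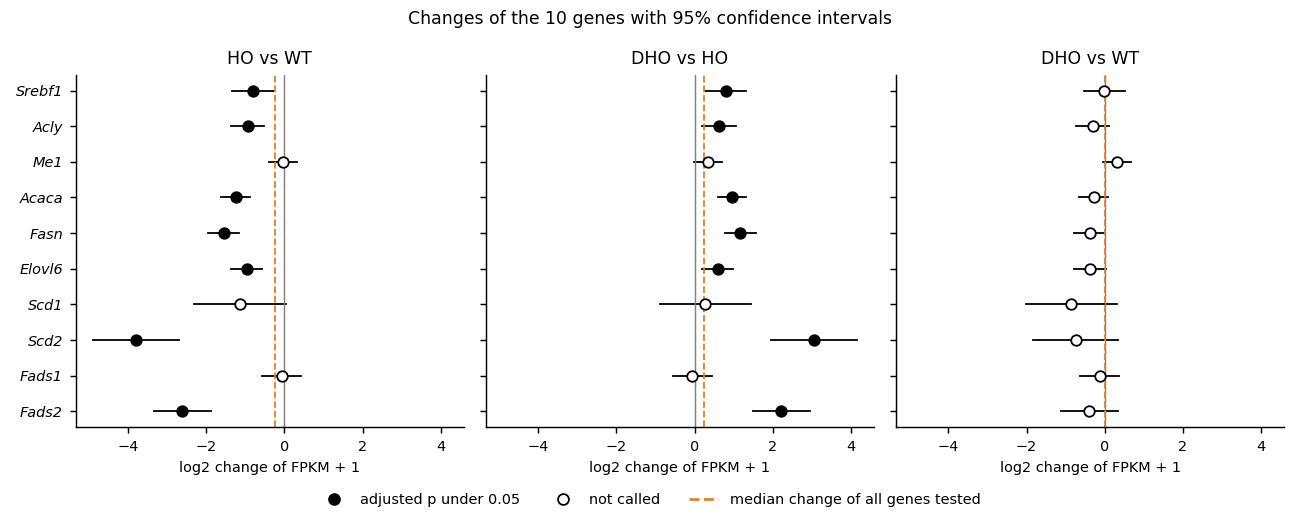
Change of each gene on the log2(FPKM + 1) scale in the 3 comparisons, with its 95% confidence interval; filled points have an adjusted p under 0.05. Scd2 and Fads2 show the largest changes in HO against WT (-3.79 and -2.61), and no point is filled in DHO against WT.

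Srebf1 (chr11:60199084-60224186, GRCm38.p6) encodes SREBP-1, the main transcriptional driver of lipogenesis. In WT it was at 12.1, 12.2, 13.7, 14.7 and 11.8 FPKM, in HO at 15.9, 3.86, 5.02, 5.69 and 8.55, and in DHO at 15.3, 14.9, 10.9, 10.5 and 13.0. HO 1, the library without distal markers, was above every WT library, and the other 4 HO libraries were below all of WT and DHO. Srebf1 fell by 0.80 in HO (SE 0.25, adjusted p = 0.01375, limma) and rose by 0.79 in DHO against HO (adjusted p = 0.01393). Without the 3 proximal libraries the values were -1.07 (adjusted p = 0.0002193) and 1.22. DHO did not pass the test against WT, with a difference of -0.01 and a 95% interval from -0.54 to 0.52.

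The call of Srebf1 in both comparisons rested on the scaling. When libraries were scaled by the median of ratios over genes instead of total reads, its changes were -0.52 (adjusted p = 0.1248) and 0.51 and neither was called. Without HO 2, HO 4 and DHO 1, which carry B cell transcripts, they were -0.48 (adjusted p = 0.1323) and 0.41.

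Acly (chr11:100476352-100528000) was at 12.6, 12.0, 18.6, 18.6 and 13.0 FPKM in WT. In HO it was at 6.19, 5.79, 8.65, 9.54 and 6.40, and in DHO at 11.6, 14.9, 8.35, 8.51 and 17.1. All HO libraries were below all WT libraries, while DHO 3 and DHO 4 stayed within the HO range. Acly fell by 0.94 in HO (SE 0.20, adjusted p = 0.001273) and rose by 0.63 in DHO against HO (SE 0.20, adjusted p = 0.01542, limma). The rise was no longer called under median-of-ratios scaling (0.34) or without the 3 libraries with B cell transcripts (0.66, adjusted p = 0.05125).

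Me1 (chr9:86581363-86695914), which makes NADPH while turning malate into pyruvate, took another course. It was at 4.49 to 5.89 FPKM in WT, at 3.23, 6.41, 5.23, 5.09 and 6.92 in HO, and at 5.29, 5.65, 8.97, 8.33 and 6.87 in DHO. The 3 groups overlapped. The difference between HO and WT was -0.03 (95% interval -0.39 to 0.32, adjusted p = 0.87), an interval that leaves out the change of each of the 7 called genes. Its highest values were in DHO 3 and DHO 4, and its lowest in HO 1, so the proximal libraries lay at both ends. DHO against HO gave 0.34 (adjusted p = 0.09158), and 0.43 without HO 5 (adjusted p = 0.03974, limma).

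Acaca (chr11:84129635-84401651), whose product makes the committed step of the pathway, was at 3.32, 3.07, 4.22, 4.57 and 3.48 FPKM in WT. It was at 0.612, 0.815, 1.09, 0.833 and 1.76 in HO and at 3.12, 4.14, 2.19, 1.88 and 3.37 in DHO. HO lay below both other groups without overlap, and its mean was 27.3% of WT. The change was -1.24 in HO (SE 0.17, adjusted p = 4.431e-05, limma) and 0.96 in DHO against HO (SE 0.17, adjusted p = 0.0003055). HO levels near 1 FPKM are drawn toward the others by the 1 FPKM added before the log. The Acaca span overlaps Tada2a and Gm11437, which reached at most 2.125 and 14.98 FPKM in any library, the second above the highest Acaca value. The sources used here do not say whether reads were counted by strand, and the part of shared reads in Acaca was not tested.

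Fasn (chr11:120805958-120825166), the synthase itself, was at 7.31, 7.37, 10.2, 9.95 and 7.94 FPKM in WT, at 2.38, 1.2, 2.98, 2.10 and 2.86 in HO, and at 6.62, 8.01, 4.78, 4.45 and 8.39 in DHO. The HO libraries again lay below both other groups without overlap, at 27.0% of the WT mean. Fasn fell by 1.55 in HO (SE 0.19, adjusted p = 1.44e-05) and rose by 1.17 in DHO against HO (SE 0.19, adjusted p = 0.0001233, limma). Of the DHO libraries, DHO 3 and DHO 4 were lowest, and 3 of the 5 lay below all of WT. DHO against WT gave -0.38 (95% interval -0.78 to 0.02, adjusted p = 0.8365), and -0.13 without the proximal libraries.

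Elovl6 (chr3:129532386-129638495) makes stearate from palmitate. It was at 23.0, 21.4, 25.5, 22.4 and 20.2 FPKM in WT, at 17.3, 7.31, 12.4, 7.29 and 13.7 in HO, and at 14.9, 16.1, 19.0, 19.9 and 15.8 in DHO. Every HO library was below every WT library, and so was every DHO library. That made Elovl6 the only 1 of the 10 genes whose DHO and WT libraries did not overlap, as 1.96% of all genes tested were lower in DHO without overlap. Its change in DHO against WT was -0.38 (SE 0.19, adjusted p = 0.8597, limma) and was not called. Elovl6 fell by 0.97 in HO (adjusted p = 0.0006482) and rose by 0.59 in DHO against HO (adjusted p = 0.01492). The rise was 0.30 under median-of-ratios scaling and 0.28 without the libraries with B cell transcripts, and called in neither; HO 2 and HO 4, left out in the second, were the lowest HO libraries.

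Scd2 (chr19:44293676-44306864), the desaturase paralog with the highest level, had the largest change of the 10. It was at 178, 166, 211, 211 and 169.9 FPKM in WT, at 8.44, 6.03, 10.7, 6.83 and 72.5 in HO, and at 171, 179.7, 65.5, 66.2 and 125 in DHO. HO 5 stood far above the other 4 HO libraries and above DHO 3 and DHO 4, and all HO libraries were below all of WT. The HO mean was 11.2% of the WT mean. Scd2 fell by 3.79 in HO (SE 0.51, adjusted p = 3.744e-05) and rose by 3.05 in DHO against HO (SE 0.51, adjusted p = 0.0001858, limma). Without HO 5 the changes were -4.40 and 3.66. Without HO 1, DHO 3 and DHO 4 they were -3.66 and 3.42. DHO against WT gave -0.74 with all libraries (95% interval -1.83 to 0.35, not called), with a DHO mean at 65.0% of WT.

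Markers of gut position were set beside Scd2. The 5 distal markers summed to 13340 FPKM in HO 5, of which 12973 was Fabp6, and to 15.8 to 4680 FPKM in the other HO libraries, against 7340 to 12108 in WT. The other distal markers of HO 5 were mixed: Slc10a2, at 322 FPKM, was below HO 2, HO 3 and HO 4 (373 to 900.5), and Hoxb9 (8.24) and Osr2 (35.8) were highest of HO but below every WT library. The 6 proximal markers summed to 897 FPKM in HO 5 and to 1360 to 19049 in the other HO libraries. All were above the 158 to 324 of WT, and most of the sum was Apoa4 in every library. In HO 2 to HO 5 Fabp1 was at 5.81 to 11.6 FPKM against 2.65 to 4.49 in WT. Gata4, Lct and Onecut2 did not exceed their highest WT library in HO 2 to HO 5. Slc25a48 ran against the list, at 22.1 to 28.2 FPKM in WT, 0 in HO 1, and 4.55 and 4.13 in DHO 3 and DHO 4. In DHO 3 and DHO 4, where Scd2 was lowest among DHO, the distal sums (9000 and 9928 FPKM) lay within those of the other DHO libraries (7624 to 10043). Hoxb9 was at 0.442 and 0.397 FPKM there against 13.5 to 14.6 in the other DHO libraries, and Slc10a2 was at 83.3 and 96.1 against 285 to 388. The part of gut position in the Scd2 levels was not tested.

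Scd1 (chr19:44394450-44407709) lies in the same gene cluster as Scd2 and its protein catalyses the same step. It was at 11.2, 8.70, 11.6, 11.1 and 8.04 FPKM in WT, at 0.978, 3.88, 2.34, 7.67 and 10.5 in HO, and at 14.7, 8.98, 1.30, 1.28 and 9.27 in DHO. Its 3 lowest libraries of all 15 were HO 1, DHO 4 and DHO 3, those with proximal transcripts. No change of Scd1 passed the test with all libraries: -1.13 in HO against WT (95% interval -2.30 to 0.03, adjusted p = 0.08989) and 0.28 in DHO against HO (95% interval -0.89 to 1.44, adjusted p = 0.6824, limma). Without those 3 libraries the changes were -0.80 (adjusted p = 0.03851) and 0.89 (adjusted p = 0.04459), both called. DHO against WT was -0.85 with all libraries (95% interval -2.02 to 0.31, not called) and 0.09 without those 3. Without HO 5 alone, the change in HO against WT was -1.43 (adjusted p = 0.03867), and a fit of the HO and WT libraries alone also called it (adjusted p = 0.03546). How reads that match both paralogs were counted is not given in the sources used here, so their levels may share some reads.

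Fads2 (chr19:10062765-10101503), the delta-6 desaturase, was at 40.4, 46.0, 55.8, 51.1 and 44.5 FPKM in WT, at 3.16, 4.01, 12.5, 4.58 and 18.6 in HO, and at 40.1, 40.9, 29.5, 26.8 and 45.3 in DHO. HO lay below both other groups without overlap, at 18.04% of the WT mean, with HO 5 again highest and HO 1 lowest. Fads2 fell by 2.61 in HO (SE 0.34, adjusted p = 3.093e-05, limma) and rose by 2.22 in DHO against HO (SE 0.34, adjusted p = 0.0001017). DHO against WT gave -0.39 (95% interval -1.12 to 0.34).

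Fads1 (chr19:10182877-10196874), the delta-5 desaturase that works after FADS2 in the same route, was at 4.24, 4.00, 7.09, 8.22 and 6.04 FPKM in WT. It was at 3.01, 6.57, 6.20, 7.96 and 4.57 in HO and at 4.53, 6.45, 4.64, 3.52 and 7.45 in DHO. The 3 groups covered nearly the same range. The difference was -0.07 in HO against WT (95% interval -0.56 to 0.43, adjusted p = 0.8183) and -0.06 in DHO against HO (95% interval -0.56 to 0.44, adjusted p = 0.8445, limma).

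**Figure D3:**
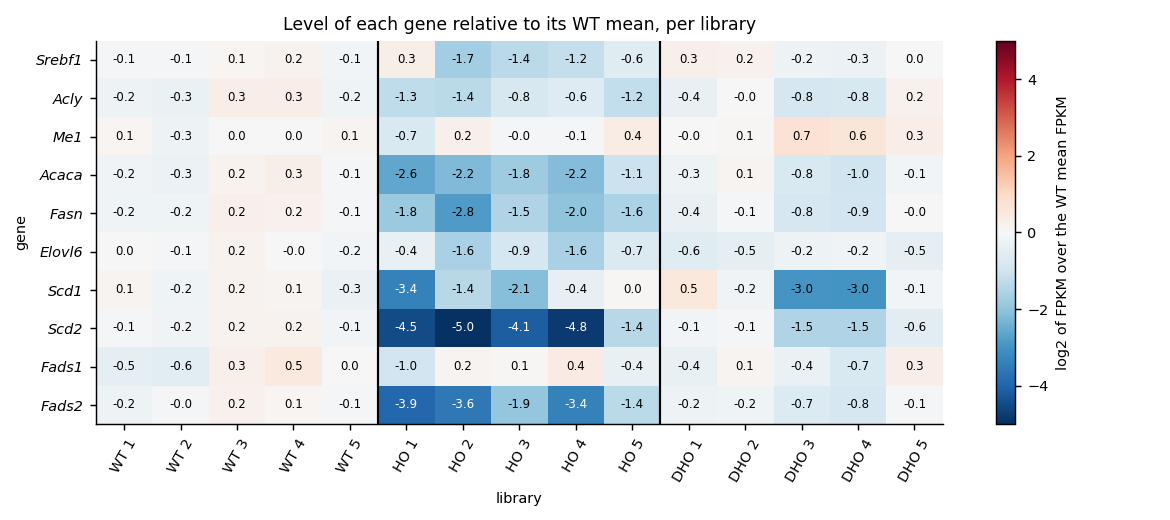
Log2 of the FPKM of the 10 genes in the 15 libraries over the WT mean FPKM of the gene, without 1 added. Blue is below and red above that mean, with the value in each cell. HO columns are blue for Scd2, Fads2, Fasn and Acaca; DHO 3 and DHO 4 are the DHO columns with low Scd1 (1.30 and 1.28 FPKM) and Scd2 (65.5 and 66.2 FPKM).

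The desaturase paralogs changed unequally, which a plain ratio of FPKM within a library shows whatever the scaling. The ratios reuse the FPKM values tested gene by gene above, so their p-values are not independent of those calls. The ratio that was tested has 1 FPKM added to each gene. It is therefore not wholly free of the scaling where a gene is near 1 FPKM, as Scd1 is in HO 1, DHO 3 and DHO 4. Per library, Scd2 exceeded Scd1 by 15.9 to 21.1 times in FPKM in WT, while the ratio was 8.63, 1.56, 4.58, 0.891 and 6.94 in HO and 11.7, 19.998, 50.6, 51.6 and 13.5 in DHO. HO lay wholly below both other groups. The 2 highest ratios, in DHO 3 and DHO 4, were the libraries where both genes were low and Scd1 lower still. The mean log2 ratio of FPKM + 1 was 4.08 ± 0.13 in WT, 1.43 ± 1.19 in HO and 4.20 ± 0.67 in DHO (SD, n = 5). HO differed from WT by -2.66 and DHO from HO by 2.77, each with p = 0.00794 in an exact two-sided permutation test, the smallest p that 5 against 5 libraries can give (adjusted p = 0.0119 over 6 tests). DHO differed from WT by 0.11 (exact permutation p = 0.68254).

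The ratio of Fads2 to Fads1 followed the same order of groups. It was 6.22 to 11.5 in WT, 1.05, 0.610, 2.02, 0.576 and 4.08 in HO, and 6.09 to 8.85 in DHO, again with HO wholly below the others. The mean log2 ratio was 2.84 ± 0.28 in WT, 0.30 ± 1.06 in HO and 2.58 ± 0.19 in DHO. HO differed from WT by -2.54 and DHO from HO by 2.28 (exact permutation p = 0.00794 and adjusted p = 0.0119 for each), and DHO from WT by -0.26 (exact permutation p = 0.12698, adjusted p = 0.15238).

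**Figure D4:**
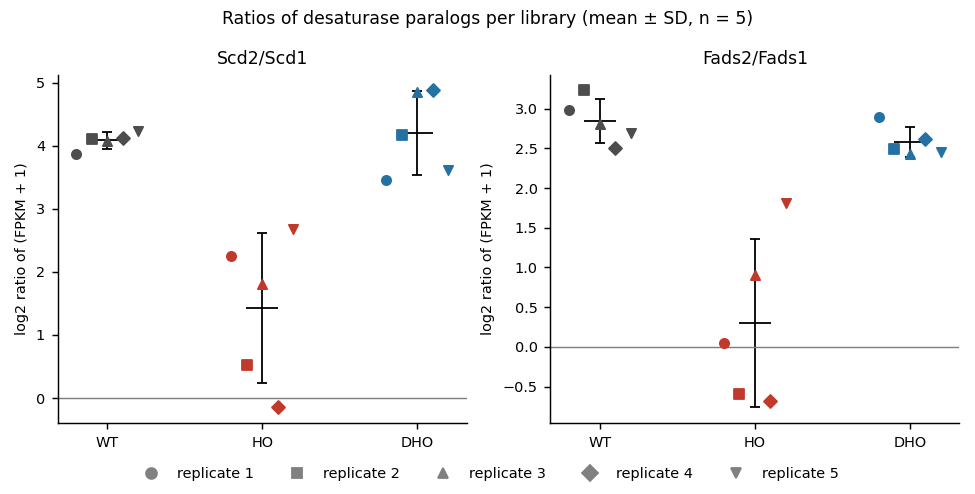
Log2 ratio of FPKM + 1 of Scd2 to Scd1 and of Fads2 to Fads1, with 1 symbol per library, bars for the mean ± SD of 5 libraries and a line at equal levels. In both panels all HO libraries lie below all WT and DHO libraries, and HO is the most spread group (SD 1.19 and 1.06).

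Other genes of lipid synthesis were followed in 5 lists of 51 genes, of which 43 could be tested. Of these, 3 rose and 21 fell in HO against WT, with a median change of -0.34, and 20 rose and 4 fell in DHO against HO, with a median of 0.37. Under median-of-ratios scaling 9 rose and 10 fell in HO, and 11 rose and 7 fell in DHO against HO, so the balance of these lists rested on the scaling. Against WT, 0 of the 43 were called in DHO. The background is that of the 10 genes above, with 42.9% of all genes called lower in the first and 42.8% higher in the second comparison. In DHO against WT it was 0.0794% higher and 0.159% lower. Under median-of-ratios scaling 2804 of all 11332 genes tested rose and 2640 fell in HO. In DHO against HO 2797 rose and 2934 fell at that scaling. These also stand beside the counts of each list below, and no count was tested against its background.

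Among 12 regulators of lipogenesis, 7 fell and 0 rose in HO, and 6 rose and 1 fell in DHO against HO. Insig1, which holds SREBP in the endoplasmic reticulum and is itself an SREBP target, fell from 54.8 ± 6.54 to 22.0 ± 5.42 FPKM (-1.30, SE 0.18, adjusted p = 3.738e-05, limma) and rose to 43.1 ± 10.4 in DHO (0.94). Scap, the escort of SREBP, fell from 8.05 ± 0.713 to 4.498 ± 0.809 (-0.73, adjusted p = 0.0001642) and rose to 7.88 ± 1.14. Mid1ip1, an activator of acetyl-CoA carboxylase, fell from 28.3 ± 3.97 to 18.5 ± 3.33 (-0.60, adjusted p = 0.001026). Mlx (57.7 and 53.8 FPKM) and Nr1h3, the liver X receptor alpha (21.7 and 24.0 FPKM), did not pass the test in HO against WT. The 1 that fell in DHO was Thrsp, a paralog of Mid1ip1 (1.72 to 0.555 FPKM, -0.81, adjusted p = 0.002626), named here after its values were seen. Under median-of-ratios scaling the list gave 3 higher and 4 lower in HO, with Insig1, Scap and Mid1ip1 still lower and Nr1h3 called higher (0.44). In DHO against HO it gave 4 higher, Insig1 and Scap among them, and 2 lower.

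Of 8 genes that supply acetyl units and NADPH, 7 were tested, and 5 fell in HO and rose in DHO against HO. Acss2, which makes acetyl-CoA from acetate, had the largest change of the list, from 12.1 ± 1.93 to 2.79 ± 1.33 FPKM (-1.85, SE 0.22, adjusted p = 1.562e-05, limma), and was at 10.3 ± 2.85 in DHO (1.604 above HO, adjusted p = 4.477e-05). Idh1, the cytosolic NADPH-making isocitrate dehydrogenase, went from 109.7 ± 4.94 to 65.0 ± 10.9 and then 135 ± 6.15 FPKM (-0.76 and 1.06). G6pdx, the entry enzyme of the pentose phosphate pathway, went from 28.4 ± 3.15 to 17.9 ± 4.04 and 26.8 ± 1.74 (-0.66 and 0.58). Mdh1 (271 and 252 FPKM) and the citrate carrier Slc25a1 (105 and 94.97 FPKM) were not called in HO against WT. HO 1, with proximal transcripts, was at 493.3 FPKM of Mdh1 and the other HO libraries at 149.9 to 267, and without the 3 proximal libraries Mdh1 fell in HO (-0.53, adjusted p = 0.006923) and rose in DHO against HO (0.53). Under median-of-ratios scaling 3 of the 7 still fell in HO, and these 3 were Acss2, Idh1 and G6pdx; in DHO against HO 2 still rose, Acss2 and Idh1.

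In the elongation list 7 of 10 genes were tested, of which 6 fell in HO and 5 rose in DHO against HO. Hacd3, a dehydratase of the elongation cycle, went from 18.5 ± 1.93 to 8.22 ± 2.23 FPKM (-1.11, SE 0.14, adjusted p = 2.731e-05, limma) and back to 17.8 ± 0.856. Elovl5, which lengthens the polyunsaturated products of FADS2, went from 15.1 ± 2.29 to 7.63 ± 1.41 and 15.6 ± 3.36 (-0.90 and 0.93). Tecr, the last reductase of the cycle, went from 79.0 ± 8.57 to 48.7 ± 19.5 (-0.76, adjusted p = 0.004404). Elovl1 missed the threshold, at 58.3 and 41.97 FPKM (adjusted p = 0.05224). Under median-of-ratios scaling Hacd3, Elovl5 and Tecr were the 3 that still fell, and 3 rose in DHO against HO, Hacd3 and Elovl5 among them but not Tecr (0.34).

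Of 9 other desaturases and electron donors, 6 were tested. The cytochromes Cyb5b and Cyb5a, which pass electrons to desaturases, fell in HO, from 134 ± 1.49 to 77.3 ± 30.8 FPKM (-0.89, adjusted p = 0.002714, limma) and from 176 ± 11.8 to 103 ± 30.6 (-0.82, adjusted p = 0.003888). Both rose in DHO against HO, to 139 and 230.5 FPKM. Degs1, a desaturase of sphingolipid synthesis, rose in HO from 9.41 ± 2.34 to 16.0 ± 3.95 FPKM (0.70, adjusted p = 0.004635) and was at 9.40 ± 1.70 in DHO (-0.69 against HO). Fads3, named after its values were seen, was at 1.89 FPKM in WT and 2.72 in HO (adjusted p = 0.0711) and fell to 1.62 in DHO (-0.50 against HO, adjusted p = 0.01332). Degs2 and Cyb5r3 were not called in HO against WT. Scd3 and Scd4, the other mouse paralogs of Scd1, reached at most 0.0443 and 0.148 FPKM in any library. Under median-of-ratios scaling the falls of Cyb5a and Cyb5b in HO were not called, but their rises in DHO were. Without the libraries with B cell transcripts the fall of Degs1 in DHO was not called (-0.49, adjusted p = 0.07277).

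Of 12 genes that activate fatty acids and build glycerolipids, 11 were tested, 2 rose and 1 fell in HO. Acsl4, an acyl-CoA synthetase that prefers arachidonate, rose from 2.81 ± 0.505 to 5.68 ± 2.18 FPKM (0.76, SE 0.23, adjusted p = 0.01298, limma) and fell to 1.70 ± 0.785 in DHO (-1.30, adjusted p = 0.0003088). Acsl5, the most abundant acyl-CoA synthetase of the list, rose from 259 ± 21.6 to 432 ± 79.9 (0.72, adjusted p = 0.03051) and was at 332 ± 172 in DHO (-0.51, adjusted p = 0.1072). DHO 3 and DHO 4 were at 505 and 532 FPKM and the other DHO libraries at 179 to 222, below every HO and WT library. Acsl5 was called lower in DHO against HO without the proximal libraries (-0.98, adjusted p = 0.0002104) and under median-of-ratios scaling (-0.83, adjusted p = 0.03453). Acsl3 fell from 12.1 ± 3.55 to 8.25 ± 2.59 (-0.51, adjusted p = 0.03096). Agpat2 (205 and 225 FPKM) and Dgat1 (127 and 157 FPKM), of glycerolipid assembly, did not pass the test. Under median-of-ratios scaling the list gave 4 higher and 0 lower in HO, and Acsl3 was not called. Acsl3 was not called in HO without the proximal libraries either (-0.39), nor was Acsl4 without those with B cell transcripts (0.45). In DHO against HO, 2 rose, Acsl3 and Acsl1, the second named after its values were seen, and 1 fell, Acsl4. Under median-of-ratios scaling 0 rose there and 3 fell, Acsl4, Acsl5 and Lpin3, the last also named after its values were seen.

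**Figure D5:**
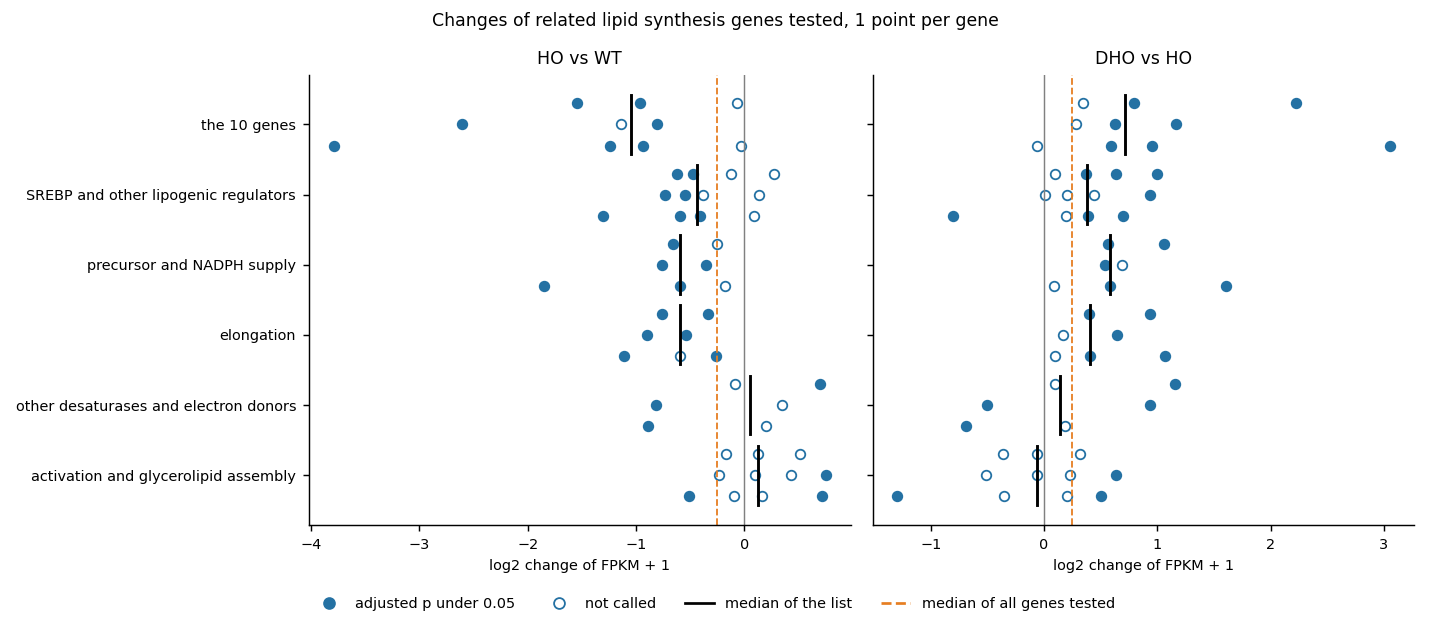
Changes on the log2(FPKM + 1) scale of the 10 genes and of the 5 other lists, with 1 point per gene (filled where the adjusted p is under 0.05), a black line at each list's median and a dashed line at the median of all genes tested (-0.25 in HO against WT, 0.25 in DHO against HO). The medians of the 10 genes are -1.05 and 0.71; those of the activation and assembly list are 0.13 and -0.06.

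For 3 of the genes, the 5 genes closest in pattern were found by the root mean square (RMS) difference of log2(FPKM + 1), centred per gene, over the 15 libraries. Closest to Scd2, whose own RMS about its mean was 1.83, were Fgfbp1 (difference 0.528), Tst (0.658), Osr2 (0.686), Gsdmc2 (0.758) and Akr1c14 (0.760). Fgfbp1 had means of 53.3 ± 8.60, 6.06 ± 6.78 and 38.6 ± 14.2 FPKM in the order WT, HO, DHO. Closest to Fasn (own RMS 0.715) were Aacs (0.141), Steap3 (0.149), Gne (0.150), Cebpa (0.155) and Rap1gap (0.163). Aacs, the acetoacetyl-CoA synthetase of the cytosol, had 31.7 ± 4.13, 10.9 ± 3.06 and 23.3 ± 4.79 FPKM. Closest to Fads2 (own RMS 1.27) were Osr2 (0.207), Kcnq1 (0.270), Aldh1b1 (0.288), Kbtbd11 (0.303) and Tst (0.305). Osr2, a transcription factor that is also on the distal gut list, was at 64.1, 63.2, 76.3, 79.8 and 70.5 FPKM in WT, at 7.89, 7.47, 19.97, 6.86 and 35.8 in HO, and at 85.3, 82.6, 45.5, 50.7 and 78.4 in DHO, so HO 5 was its highest HO library too.

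Markers of cell types moved with the groups as well. Beside the counts below, 42.9% of all genes tested were called lower and 12.4% higher in HO. In DHO against HO, 42.8% were called higher and 13.4% lower. Crypt stem and proliferation markers summed to 85.4 to 258 FPKM in WT, 5.12 to 16.4 in HO and 97.6 to 220 in DHO, and all 6 fell in HO while 5 rose in DHO against HO. HO 5, with high Scd2, was at 10.8 FPKM, within the HO range of this sum. Paneth cell markers summed to 2700.5 to 13892, 1007 to 4479 and 1957 to 7170 FPKM, and all 5 fell in HO while 4 rose in DHO against HO. Enterocyte markers were at 7057 to 9456 FPKM in WT, 8181 to 10954 in HO and 8981 to 19692 in DHO, and 3 of 7 rose in HO. DHO 3 and DHO 4, with proximal transcripts, were at 17997 and 19692 FPKM and the other DHO libraries at 8981 to 9684. The part of the crypt and Paneth cell transcripts in the falls and rises of the lipogenic genes was not tested.

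Fat cells and glia also make these enzymes, so their markers were set beside them. The adipocyte list summed to 27.5 to 50.7 FPKM in WT, 65.1 to 119.5 in HO and 36.2 to 47.5 in DHO, higher in HO, where most of the 10 genes were lower. Cidec and Fabp4, which other gut cells also express, made most of that sum, while Adipoq was at 0 in 8 libraries and reached at most 2.56 FPKM (HO 3), and Plin1 was at 0 in 9 libraries. In HO 5 Adipoq was at 1.93 FPKM. Of the 8 adipocyte markers 4 were tested, 2 rose in HO, and 3 fell in DHO against HO. Of all genes tested, 12.4% rose in the first and 13.4% fell in the second. Schwann cell and glia markers summed to 5.73 to 9.53 FPKM in WT, 7.04 to 13.8 in HO and 6.61 to 9.81 in DHO. Within that sum the members moved apart: Mbp was at 4.48 to 5.99 FPKM in WT and 3.17 to 3.95 in HO, and Gfap at 0.0278 to 0.240 and 1.47 to 4.40. Smooth muscle markers summed to 145 to 1043, 362 to 1634 and 385 to 1203 FPKM, and macrophage markers to 71.3 to 136, 74.8 to 269.5 and 38.4 to 120.1 FPKM. B cell markers summed to 50.7, 119 and 54.6 FPKM in HO 2, HO 4 and DHO 1 and to at most 8.32 in the others. The part of these cell types in the results was not tested.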

How the data were processed

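Total RNA of ileum (5 WT, 5 HO, 5 DHO) was isolated by TRIzol and sequenced as VAHTS Universal V6 libraries, per the labels' protocols. The deposited table gives 1 FPKM value per gene and library; the unit was read from the values, because the file names none. The submitters' processing notes name the tools HISAT2, HTSeq and fastp and the build mm10, with settings not given in the sources used here. Whole reads, within 0.02 of a read, were recovered for 99.99% of genes above 0.

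Genes that reached 1 FPKM in 5 or more libraries were tested with limma-trend and robust moderation on log2(FPKM + 1) in 1 fit of 3 group means (limma 3.58.1, R 4.3.3), two-sided, with Benjamini-Hochberg adjustment over 11332 genes. A fold on this scale understates changes of low genes. Ratios were tested by exact permutation (scipy 1.17.1). Recovered depth was 38724783 to 40590053 reads per library, and members held 189 to 45847 reads. The workflow was tested on simulated data.

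The genes, lists, alternatives and likeness rule were chosen with earlier results of these data known. Named are all 10 genes; per list, up to 3 genes with the smallest p in HO against WT and up to 2 uncalled ones with the largest mean; and the 5 genes most like Scd2, Fasn and Fads2. Outside that rule, Thrsp, Fads3, Acsl1, Lpin3, Scd3 and Scd4 were named after their values were seen. So were single cell and position markers (Gata4, Lct, Onecut2, Fabp1, Slc25a48, Fabp6, Slc10a2, Hoxb9, Apoa4, Adipoq, Plin1, Cidec, Fabp4, Mbp, Gfap). Coordinates are RefSeq genes of GRCm38.p6, the assembly behind mm10. Alternatives were another pseudocount, other filters, quantile and median-of-ratios scaling, 2-group fits, limma-voom on recovered reads and leaving out libraries.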

Additional observations from a re-analysis of the deposited data

Results flagged for a closer look

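Scd2 in HO 5, at 72.505 FPKM, stood apart from the other 4 HO libraries, which were at 6.03 to 10.7 FPKM. The gap to the nearest of them was 0.929 of the range of the group, above the critical value of 0.710 for 5 libraries. It was the 1 value to do so among the 36 groups of values checked, in which chance flags about 1 in 20. Without HO 5, Scd2 changed by -4.40 in HO against WT and by 3.66 in DHO against HO, on the log2(FPKM + 1) scale.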

How the results depend on the processing

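No paired analysis was possible because the labels number no replicates and the numbers used here only name the libraries. The 7 lower members in HO became 6 under quantile, median-of-ratios and voom median-of-ratios scaling and without the B cell libraries (HO 2, HO 4 and DHO 1). The 7 higher members in DHO against HO became 4 under the same settings (Acaca, Fads2, Fasn and Scd2 in each). Without the proximal libraries (HO 1, DHO 3 and DHO 4) both counts were 8, with Scd1 added. The cause of these and the following changes was not tested. Of the single-gene values, 729 kept their side of the threshold, 5 gained and 16 lost a call, and no called value of a member and no called ratio changed sign. Over all genes the balance of higher and lower calls turned under median-of-ratios scaling.

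Over all genes, 1406 higher and 4867 lower in HO became 2505 and 3154 (quantile), 2804 and 2640 (median of ratios), 2747 and 2632 (voom, median of ratios), and 852 higher without the B cell libraries. In DHO against HO, 4846 higher and 1513 lower became 2797 and 2934 (median of ratios) and 2807 and 2919 (voom, median of ratios); lower calls were 2595 (quantile) and 850 (without the B cell libraries). In DHO against WT, 9 higher and 18 lower became 2 and 11 (median of ratios), 3 and 8 (voom, median of ratios) and 91 and 95 (2 groups alone); higher calls were 5 (voom, totals) and 28 (without the proximal libraries), and lower calls 36 without the B cell libraries.

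Leaving out 1 library gave 1090 to 1609 higher and 4246 to 5145 lower in HO, 4415 to 5159 higher and 1152 to 1777 lower in DHO against HO, and 1 to 35 higher and 6 to 45 lower in DHO against WT (35 and 45 without HO 1). The members' counts were then 7 to 8. The log2 ratio differences ran from -2.97 to -2.27, 2.38 to 3.09 and -0.06 to 0.30 for Scd2 to Scd1, and from -2.92 to -2.30, 2.03 to 2.66 and -0.35 to -0.17 for Fads2 to Fads1. The last passed the threshold without DHO 1 (-0.34, adjusted p = 0.0381, exact permutation). Without the proximal libraries the ratio differences in DHO against HO were 2.53 and 2.25 and not called (adjusted p = 0.08571, exact permutation). Without the B cell libraries they were -1.84 and 2.13 for Scd2 to Scd1 and -1.92 and 1.57 for Fads2 to Fads1 (adjusted p = 0.06857), as fewer libraries raise the smallest p. The lowest read count of a member in a library was 189.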
